A study of Mus musculus with 83 samples.

Results

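The mitochondrial ribosomal protein genes are the 78 genes whose mouse symbol begins with Mrpl or Mrps followed by a number and at most 1 letter from a to c, out of 48795 genes in the raw count table. All symbols of that form were taken, whatever their values. By the usual assignment 51 encode proteins of the large subunit, Mrps18a and Mrps30 among them, and 26 encode proteins of the small subunit. Mrps36, which is now known as a subunit of the oxoglutarate dehydrogenase complex, fits the symbol pattern and was kept as a member without a subunit. Of the members, 47 were listed as having a counterpart in bacterial ribosomes, Mrps18b and Mrps18c among them. Another 30 were listed as specific to mitochondria, among them the paralog Mrps18a.

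RNA was sequenced from frontal cortex neurons of male C57BL/6 mice, captured by laser in pools of 125 cells from sections 14 µm thick. Old mice were 22 months and young mice 2 months of age, and no other treatment or allele is given. The neurons were pyramidal cells (PYC), or interneurons that express parvalbumin (PV), somatostatin (SST) or vasoactive intestinal peptide (VIP), and Slc17a7, Pvalb, Sst and Vip served as the stained markers. There were 12 old libraries of each type, 9 young ones of PYC, of SST and of VIP, and 8 young ones of PV, which makes 83 in all. The series names 12 old and 9 young mice, so pools of different types partly share mice, which the labels do not record.

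Mitochondria keep their own ribosome, which translates the few messages of the mitochondrial genome, all of them for membrane subunits of oxidative phosphorylation. Its ribosomal RNAs, mt-Rnr1 in the small and mt-Rnr2 in the large subunit, are transcribed in the organelle, and all of its proteins are made from nuclear genes in the cytosol and imported. Fast-spiking PV interneurons are known for a high density of mitochondria and a high energy demand.

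A library held 1.46 to 27.2 M counts (median 6.99 M), and the members together had 1505 to 33403 counts in a library. Pvalb had a median of 76.3 counts per 1e6 of the library total (CPM) in PV, Sst 817 CPM in SST and Vip 527 CPM in VIP, against medians of at most 4.65, 18.2 and 0.372 CPM in the other types. Old VIP libraries 9 and 11 stood apart, with 439 and 331 CPM of Sst and 1742 and 1892 CPM of the 5 SST markers summed. The other VIP libraries had at most 55.7 and 467 CPM, and SST libraries at least 2437 CPM of these markers. Slc17a7, the glutamate transporter used to find PYC, was present in every type, at a median of 273 CPM in PV, 347 CPM in SST and 484 CPM in VIP, against 731 CPM in PYC. Astrocyte transcripts were in every type too. In 6 libraries (young VIP 1 and 3, young PYC 2, young SST 6, old PYC 10 and old VIP 11) the percentage of counts in mitochondrially encoded genes was 0.215 to 2.51, and it was 8.31 to 17.0 in the remaining 77. Their summed member level was 832 to 1233 CPM, inside the 797 to 1765 CPM of the others. A pool is bulk RNA, so fewer cells of a type and less RNA per cell cannot be told apart in any value here.

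The members were low to moderate in level and patchy in single libraries. Per length of exon, as CPM per kilobase (FPKM), their median level was 3.66, with 6 members over 10 and 10 under 1. The length is that of the merged exons of all annotated transcripts, so an FPKM depends on the annotation too. Mrpl13, with 7936 bases, had a median of 7.80 CPM and 0.983 FPKM. Small subunit members had a median of 3.14 FPKM and large subunit members 3.73 FPKM. Members with a bacterial counterpart had 2.95 FPKM and mitochondria-specific ones 4.46 FPKM. Of the 6474 member-by-library values, 15.2% were 0. A library had counts for 40 to 77 of the 78 members, and 3 members (Mrps5, Mrps18a and Mrps25) had a count in every library.

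The highest member per length was Mrps21, a small subunit protein with a bacterial counterpart, at a median of 18.5 FPKM over all libraries. The large subunit proteins Mrpl41 (18.4 FPKM), Mrpl28 (17.9 FPKM), Mrpl12 (14.0 FPKM) and Mrpl38 (10.95 FPKM) followed. Their ranges over libraries were wide, 0 to 93.7 FPKM for Mrps21 and 0 to 29.9 FPKM for Mrpl38, so these 5 are not ordered beyond their spread.

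At the low end, Mrpl53 had 0 counts in all 83 libraries. Mrps34 was at 0 in 52 libraries, Mrps18c in 49, Mrps18b in 34 and Mrpl47 in 30. All 5 share exon sequence with other genes, over 88.0% of the exon length for Mrpl53, 77.8% for Mrps34, 30.5% for Mrps18b, 24.2% for Mrpl47 and 23.2% for Mrps18c. Members with over 20% of their exon length overlapped, 10 in number, were at 0 in a median of 23.5 libraries, against 7 libraries for the 45 members without overlap. Their median levels were 0.642 and 4.28 FPKM. The overlap did not go with zeros in every case, since Mrps25, a small subunit protein gene with 69.8% of its exon length overlapped by the antisense gene Nr2c2, had the highest summed count of all members. The sources used here do not give how reads in overlaps were counted, so levels of overlapped members are uncertain.

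**Figure D1:**
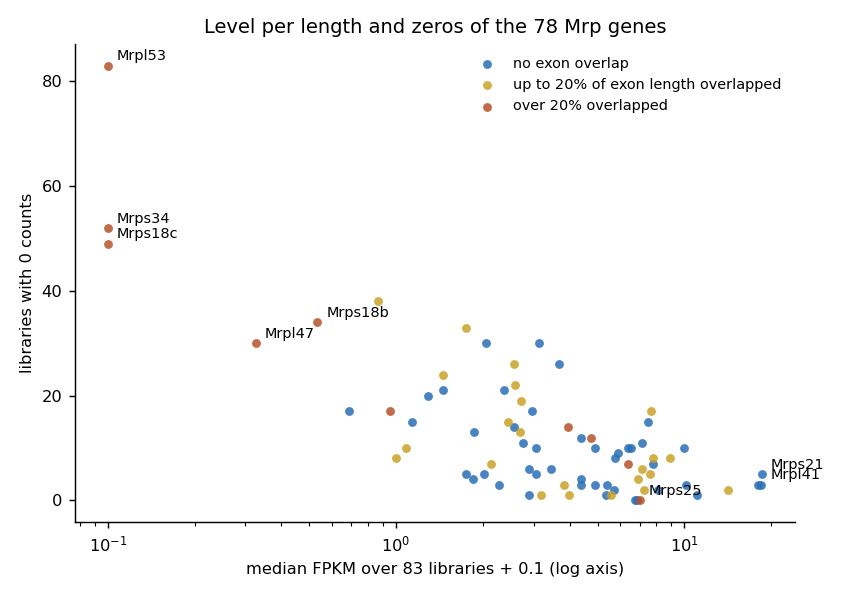
Median level per exon length (FPKM plus 0.1, log axis) against the number of libraries with 0 counts, 1 point for each of the 78 genes, coloured by how much of the exon length overlaps other genes. Mrpl53, Mrps34 and Mrps18c, all over 20% overlapped, stand at the upper left with a median of 0, and Mrps25, also over 20% overlapped, has no zeros.

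The 3 Mrps18 paralogs differed in level. Mrps18a, the copy found in the large subunit, had 6.75 FPKM and a count in every library. Its small subunit paralogs Mrps18b and Mrps18c, which occupy different positions there, had medians of 0.433 and 0 FPKM. Both of these are overlapped genes, by Gm16279 on the other strand and Gm43511 on the same strand, while Mrps18a has no overlap.

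The first comparison asked where a neuron type differs from the average of the other types. PV pools had the highest summed level of the members. The summed member level averaged 1386 ± 127 CPM in old PV (SD, n = 12) and 1435 ± 194 CPM in young PV (SD, n = 8). It averaged 1167 ± 99.8 CPM in old and 1072 ± 115 CPM in young PYC, 1180 ± 110 CPM in old and 1192 ± 152 CPM in young SST, and 1122 ± 159 CPM in old and 1133 ± 169 CPM in young VIP pools (SD, n = 12 old and 9 young each). The PV mean was 1.23 times that of the other types, and the ratio was 0.902 for PYC, 0.973 for SST and 0.910 for VIP. Of 20 PV libraries, 15 lay above the highest PYC library, which had 1316 CPM. Of the 63 libraries of other types, 3 lay above the PV median of 1367 CPM. A sum over the members gets no test here, since the members were chosen with results of these data known. The ratio for PV was 1.22 without the 6 libraries low in mitochondrial counts, 1.24 without the VIP libraries high in SST markers, 1.26 when mitochondrial and ribosomal RNA counts were taken out of the library total, and 1.28 with TMM scaling.

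**Figure D2:**
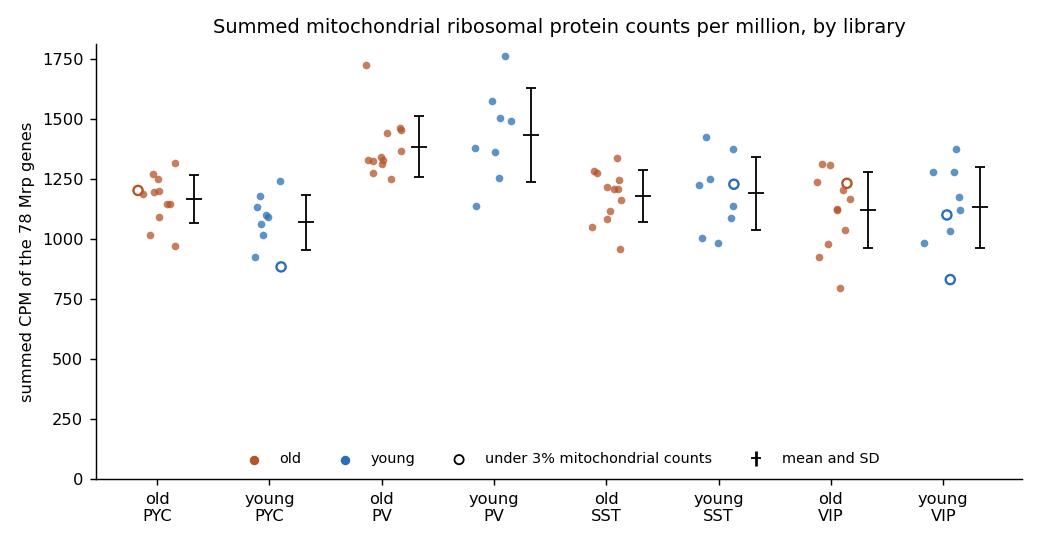
Summed CPM of the 78 genes in each library, by neuron type and age, with the mean and SD of each group at its right and open circles for the 6 libraries low in mitochondrial counts. Old and young PV libraries sit between 1140 and 1765 CPM, and those of the other types between 797 and 1426 CPM.

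Tested one by one, 1 member differed between types and the others did not pass. The fit held the 9604 genes at or above the median abundance, 56 members among them, and edgeR's quasi-likelihood test called Mrps2 higher in PV at an adjusted p under 0.05. Over all genes 10.8% were called higher and 11.4% lower in PV, against 1 and 0 of the 56 members. At an unadjusted p under 0.05 there were 7 members higher and 0 lower in PV, and 31.1% of all genes in either direction. The shares of members called were thus below the background in PV. Single members varied strongly between pools of the same group, with a median coefficient of variation of 93.7%, against 8.55% to 14.9% for the sum, and the median standard error of a type log2 fold change was 0.47.

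Mrps2 encodes a small subunit protein with a bacterial counterpart. It had 2.53 to 63.7 CPM with a median of 28.5 CPM in old PV and 6.44 to 70.8 CPM with a median of 34.1 CPM in young PV pools. Medians were 14.4 CPM in old and 7.17 CPM in young PYC, 6.53 CPM in old and 7.36 CPM in young SST, and 15.2 CPM in old and 8.37 CPM in young VIP pools. The highest library outside PV had 46.0 CPM, so the types overlap, but no PV library was at 0. The log2 fold change in PV was 1.34 ± 0.39 (SE, 20 PV and 63 other libraries) with an edgeR adjusted p of 0.0065. It stayed called when any 1 library was left out, with log2 fold changes of 1.22 to 1.43. Without the VIP libraries high in SST markers it was 1.33 with an adjusted p of 0.00575, where 10.9% of genes were called higher, and the VIP contrast still had no member called. Over the other settings tried the adjusted p ran from 0.000406 to 0.160. It was also called among all genes past the count filter, where 7.95% of genes were called higher. In old libraries alone it was 1.002 with an adjusted p of 0.160, which does not pass, and in young libraries alone 1.68 with an adjusted p of 0.0358 (9.33% and 6.12% of all genes called higher). In SST the log2 fold change was -0.90 ± 0.44 (SE), which did not pass (edgeR adjusted p = 0.287).

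**Figure D3:**
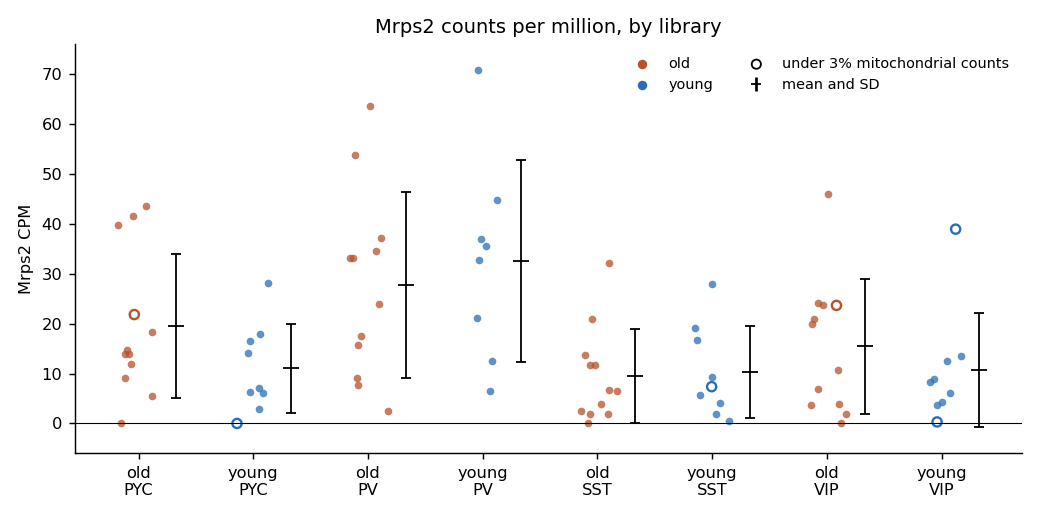
Mrps2 CPM in each library by neuron type and age, with the mean and SD of each group at its right (an SD can reach below 0) and open circles for the 6 libraries low in mitochondrial counts. PV libraries have medians of 28.5 CPM (old) and 34.1 CPM (young), the 6 other groups medians of 6.53 to 15.2 CPM, and the ranges overlap.

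The gene lies on chromosome 2 from 28468066 to 28471178 on the plus strand (GRCm38), has no exon overlap, and its exons span 2919 bases. Its promoter window, chr2:28467816-28468115 (plus strand), is shown because Mrps2 was the member called. The sequence is from RefSeq on GRCm38.p6, and capitals mark the 50 bases from the transcription start on.

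Mrps2: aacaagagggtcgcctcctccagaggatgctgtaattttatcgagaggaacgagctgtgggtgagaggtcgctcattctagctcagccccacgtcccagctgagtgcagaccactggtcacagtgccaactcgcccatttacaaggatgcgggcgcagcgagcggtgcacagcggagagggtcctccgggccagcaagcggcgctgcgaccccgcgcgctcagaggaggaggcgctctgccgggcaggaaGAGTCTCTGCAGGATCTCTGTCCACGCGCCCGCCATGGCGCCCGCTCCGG

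Nuclear genes of mitochondrial proteins are known targets of the factors NRF1 and of the ETS protein GABP, and many also hold SP1 and YY1 sites. Exact matches were counted on both strands in windows of 250 bases before to 50 bases after the start, 75 windows for 69 of the members and 32851 windows in all. The ETS core CCGGAAG was in 34.7% of member windows and 8.86% of all windows. The YY1 core AAGATGG was in 17.3% and 6.34%, the NRF1 core GCGCATG in 10.7% and 3.91%, and the SP1 core GGGCGG in 52.0% and 35.7%. The sequence AAGGTCA, to which the receptor encoded by Esrra binds, was looked for after the values of Esrra given below had been seen, and was in 5.33% of member and 4.72% of all windows. None of these letters is in the Mrps2 window. These shares describe sequence and are not evidence of binding. The matches below are shown as examples, with the matched letters in capitals, for Mrpl10 (chr11:97041571-97041591), Mrpl22 (chr11:58171624-58171644 and chr11:58171604-58171624), Mrps18a (chr17:46110971-46110991) and Mrps22 (chr9:98601677-98601697, minus strand), each read along the strand of the gene.

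Mrpl10 NRF1 core: gcgcagcGCGCATGggaactt
Mrpl22 NRF1 core: tcggactGCGCATGcgtatag
Mrpl22 ETS core: tccggtcCCGGAAGccggcct
Mrps18a ETS core: ccctgctCCGGAAGcggaagt
Mrps22 ETS core: tctcgagCCGGAAGttgctct

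The other members in PV leaned the same way without passing. Of the 56 members, 47 had a positive log2 fold change in PV and 9 a negative one, with a median of 0.36, while 48.6% of all genes were positive and their median was -0.02. The lean was in both subunits. Of 17 small subunit members 15 were positive (median 0.40), and of 38 large subunit members 31 were (median 0.32). Mitochondria-specific members were positive in 21 of 23 cases and those with a bacterial counterpart in 25 of 32. Among the 35 members without exon overlap 29 were positive. In old libraries alone 22 of 29 fitted members and 48.7% of all genes were positive, and in young libraries alone 29 of 31 members and 48.6% of all genes.

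Some members known by their place in the ribosome are given as examples, not the whole panel by role. Of the panel at the tunnel exit, Mrpl22 and Mrpl23 were not fitted, and the value of Mrpl24 is not given here. Mrpl45, at the exit of the peptide tunnel by the inner membrane, had a log2 fold change in PV of 1.04 ± 0.47 (SE), and averaged 27.5 ± 14.3 CPM in PV and 14.0 ± 11.9 CPM in the other types (SD). Mrps5 and Mrps24, whose bacterial counterparts lie where the message enters the ribosome, had 0.45 ± 0.21 and 0.78 ± 0.45 (SE). Of the stalk proteins, Mrpl12, which also binds the mitochondrial RNA polymerase, had 0.69 ± 0.32, Mrpl11 had 0.18 ± 0.63 and Mrpl10 had -0.07 ± 0.49 (SE). Mrps12, at the decoding centre, had 0.00 ± 0.49, the head protein Mrps7 0.19 ± 0.41 and the large subunit protein Mrpl3 0.26 ± 0.32 (SE). None of these passed, with edgeR adjusted p from 0.105 to 0.997.

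**Figure D4:**
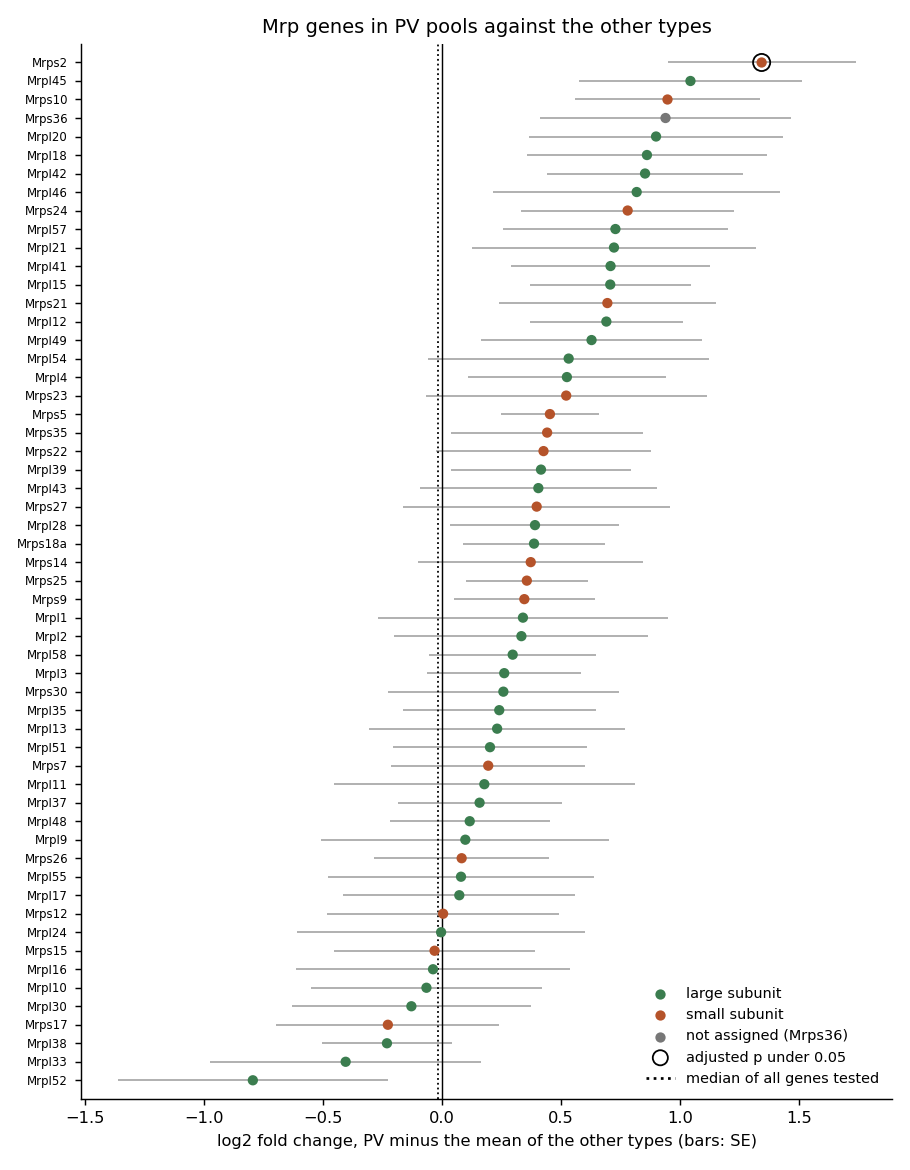
Log2 fold change of the 56 fitted genes in PV against the mean of the other types, with SE bars, sorted and coloured by subunit, and the median of all genes as a dotted line. Points run from -0.79 (Mrpl52) to 1.34 (Mrps2, ringed as the only one with an adjusted p under 0.05), and 47 lie right of 0.

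No member was called in the other types by edgeR. The shares of all genes called higher and lower were 9.1% and 7.23% in PYC, 4.22% and 2.99% in SST, and 6.76% and 5.37% in VIP. Without adjustment, at a p under 0.05, 0 members were higher and 3 lower in PYC, 0 and 1 in SST, and 1 and 4 in VIP, against 24.9%, 15.6% and 22.1% of all genes in either direction. Of the 56 members 19 were positive in PYC, 25 in SST and 21 in VIP, with medians of -0.08, -0.15 and -0.18, beside -0.02, 0.02 and 0.03 over all genes. The sign of the PYC and SST medians was not stable: it was 0.07 for PYC with limma-voom and 0.06 in old libraries alone, and 0.01 for SST when all genes past the count filter were fitted. All 4 contrasts are made from the same libraries, so a member high in PV lowers the contrasts of the other types.

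The number of calls depended on the tool. Limma-voom with quality weights called 16 members higher in PV, where it called 18% of all genes higher and 14.3% lower. Mrps2 (log2 fold change 1.49), Mrpl45 (1.70), Mrpl20 (1.97), Mrpl42 (1.64), Mrpl12 (1.08), Mrps18a (0.83), Mrps5 (0.56), Mrps24 (1.07) and Mrps36 (1.74) were among them. It called 4 members lower in VIP (Mrpl13, Mrpl18, Mrps12 and Mrps18a), where it called 6.39% of all genes lower, and 1 lower in SST (Mrpl48, with 3.85% of all genes lower). In PYC it called 1 higher (Mrps12, with 13.3% of all genes) and 1 lower (Mrps5, with 9.6%). When edgeR was run on all genes past the count filter, Mrps18c was higher (log2 fold change 2.59, adjusted p = 0.0232) and Mrps34 lower (-3.32, adjusted p = 0.0459) in PYC, beside 8.18% and 5.18% of all genes. Both are overlapped genes with many zeros, and both lie below the median abundance that the fit as reported required. With edgeR and without the 6 libraries low in mitochondrial counts, Mrps5 was called higher in PV beside Mrps2 (log2 fold change 0.59, adjusted p = 0.0279, 11.1% of all genes higher), and without old PV library 8 the small subunit gene Mrps10 was (1.01, adjusted p = 0.0393, 10.4% of all genes higher). These members other than Mrps2 are named because the other settings called them, after their values were seen.

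Astrocyte and pyramidal markers summed to lower medians in PV pools than in the other types. The 10 astrocyte markers summed to 861 to 2526 CPM in old and 1333 to 1966 CPM in young PV pools, against 1618 to 2862 CPM in old and 1389 to 3424 CPM in young PYC, 1645 to 2486 CPM in old and 1448 to 2798 CPM in young SST, and 1954 to 3310 CPM in old and 1286 to 3093 CPM in young VIP pools. Of 8 astrocyte markers fitted, 1 (Slc1a2) was called lower in PV, where 11.4% of all genes were called lower. None of the 10 was at 0 in all libraries of any type. In PV 0 of 7 oligodendrocyte, 0 of 2 microglia and 0 of 2 endothelial markers fitted were called. Of 4 oligodendrocyte precursor markers fitted, 1 (Cspg4) was called lower in PV. The 7 pyramidal markers summed to a median of 1509 CPM in PV, against 3426 CPM in PYC, 1817 CPM in SST and 2909 CPM in VIP, and all 6 of them that were fitted were lower in PV. None of these was at 0 in all libraries of a type either. Their part in the PV values of the members was not tested.

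Genes around the mitochondrial ribosome were read from lists by role. Of 15 translation factors and messenger-binding proteins of mitochondria, 10 were fitted. In PV 2 of them were called higher, beside 10.8% of all genes. Lrpprc, which stabilises mitochondrial messages, averaged 119 ± 42.1 CPM in PV and 77.2 ± 34.2 CPM in the other types (SD; log2 fold change 0.72 ± 0.18 SE, edgeR adjusted p = 0.000993), and it was lower in VIP (-0.64 ± 0.19 SE, adjusted p = 0.0117). Gfm1, the elongation factor that moves the ribosome along the message, averaged 76.2 ± 32.2 CPM in PV and 47.2 ± 26.3 CPM in the other types (SD; 0.74 ± 0.21 SE, adjusted p = 0.00439). Of 20 ribosome assembly genes 9 were fitted, of 6 transcription genes 3, and of 5 ribosome proteins with other names, such as Dap3, 3. None of these was called in any type.

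Of 8 regulators of mitochondrial genes, 7 were fitted and 2 were called higher in PV, beside 10.8% of all genes. Ppargc1a, a coactivator of mitochondrial biogenesis, averaged 244 ± 75.7 CPM in PV and 80.8 ± 43.9 CPM in the other types (SD; log2 fold change 1.75 ± 0.15 SE), and was lower in PYC (-1.23 ± 0.17 SE) and in VIP (-0.56 ± 0.17 SE). Esrra, a nuclear receptor it coactivates, averaged 27.6 ± 18.6 CPM in PV and 12.0 ± 11.8 CPM in the other types (SD; 1.27 ± 0.46 SE, edgeR adjusted p = 0.0322). Most nuclear oxidative phosphorylation subunits, those of the Sdh genes aside, have complexes that also take the products of the mitochondrial ribosome. The subunits, Sdh included, were called higher in PV in 48 of 75 cases with a median log2 fold change of 0.76, beside 10.8% of all genes. In VIP they were called lower in 21 cases with a median of -0.48, beside 5.37% of all genes. Their medians in PYC and SST were -0.19 and -0.14. As with the members, a gene high in PV lowers the contrasts of the other types, Ppargc1a and Lrpprc included. Cytosolic ribosomal proteins had 0 of 73 called in PV and a median of -0.05. The members' PV median of 0.36 lay between these 2 lists. The differences between the lists were not tested.

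The second comparison set old against young mice within each type. No member passed in any type. By edgeR 0 members were called among 74 tested in PYC, 75 in PV, 74 in SST and 69 in VIP, and 0% of all genes were called. At an unadjusted p under 0.05 there was 1 member in PYC, 1 in PV, 0 in SST and 0 in VIP, against 2.91%, 2.32%, 2.87% and 2.98% of all genes. DESeq2 and limma-voom called 0 members in every type as well. The untested members include Mrpl53 and Mrps34 in every type. The median standard error of a member's age log2 fold change was 0.89, so a doubling of a single member was mostly not detectable in these pools.

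Members were spread around no difference. The median log2 fold change, old minus young, was 0.03 in PYC (39 of 74 positive), -0.13 in PV (31 of 75), -0.01 in SST (36 of 74) and -0.05 in VIP. The medians of all genes were 0.00, 0.00, -0.01 and 0.02. The summed member level in old over young pools was 1.09 times in PYC, 0.966 in PV, 0.990 in SST and 0.990 in VIP, each within 1 SD of a group. Of the 67 members tested in every type, 3 (Mrpl41, Mrps9 and Mrps12) were positive in all 4 types and 6 (Mrpl1, Mrpl44, Mrps5, Mrps21, Mrps24 and Mrps33) negative in all 4. These are 4.48% and 8.96% of them, against 7.26% and 6.84% of the 10930 genes tested in every type, which is close to the background.

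**Figure D5:**
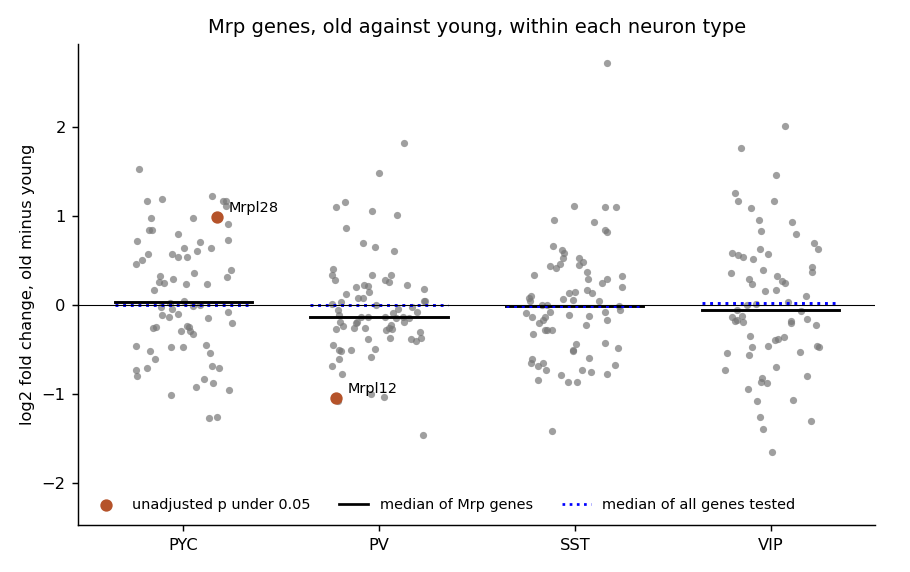
Log2 fold change, old minus young, of each tested gene within the 4 neuron types, with the median of these genes as a solid and that of all genes as a dotted line. The solid lines lie at 0.03, -0.13, -0.01 and -0.05, and the named points are the 2 with an unadjusted p under 0.05.

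Mrpl12, a stalk protein of the large subunit, had the lowest p in PV. It had 2.72 to 48.5 CPM with a median of 26.4 CPM in old PV and 20.5 to 90.8 CPM with a median of 47.0 CPM in young PV pools. The groups overlap. The log2 fold change was -1.05 ± 0.43 (SE) with an edgeR adjusted p of 1 (rounded) and an unadjusted p of 0.0175. Mrpl28, a large subunit protein with a bacterial counterpart, had 13.8 to 119 CPM with a median of 34.6 CPM in old PYC and 6.30 to 41.6 CPM with a median of 18.6 CPM in young PYC pools. These groups overlap too, and the value was 0.99 ± 0.45 (SE, unadjusted p = 0.0325, edgeR adjusted p = 0.9998). Neither passed. Over the other settings (edgeR, DESeq2 or limma-voom) the lowest adjusted p was 0.0689 for Mrpl12 and 0.173 for Mrpl28.

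Whether the age difference itself differed between types was tested in the fit of all groups. The interaction was called for 0 of the 56 members and 0% of the 9604 genes by edgeR, and for 0 members by limma-voom. At an unadjusted p under 0.05 it was 2.53% of all genes, and no member, since the lowest values were those of Mrpl12 (p = 0.187), Mrpl28 (p = 0.195) and the mitochondria-specific large subunit gene Mrpl42 (p = 0.239) in that fit. Mrpl42 had age log2 fold changes of 1.11 ± 0.78 in PYC, -0.26 ± 0.43 in PV, -0.23 ± 0.67 in SST and 1.46 ± 0.91 in VIP (SE).

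The RNA parts of the same ribosome are no members and were read as a share of each library. The percentage of counts in mt-Rnr1 and mt-Rnr2 was 9.87 ± 3.002 in old and 8.44 ± 3.44 in young PYC, 11.2 ± 1.86 in old and 11.4 ± 1.52 in young PV, 10.6 ± 1.34 in old and 8.29 ± 2.51 in young SST, and 9.99 ± 3.36 in old and 7.56 ± 3.98 in young VIP pools (SD, n = 12 old and 8 or 9 young). By a 2-sided exact permutation test over libraries, adjusted over the 4 types, the share was higher in old than in young SST pools by 2.33 percentage points (adjusted p = 0.00985). SST values ran from 7.98% to 12.7% with a median of 10.8% in old and from 1.80% to 9.94% with a median of 9.08% in young pools. Young SST library 6 is 1 of the 6 libraries low in mitochondrial counts, and without it the difference was 1.52 points (exact permutation adjusted p = 0.0380, again over 4 types). The other types did not pass (exact permutation adjusted p = 0.475 in PYC, 0.830 in PV and 0.294 in VIP). In PYC the difference passed when old PYC library 10, also a low one, was left out alone (2.24 points, exact permutation adjusted p = 0.0472), and did not when young PYC library 2 was left out with it (1.20 points, 0.137). In VIP the difference of 2.44 points was 1.19 points without old library 11 and young libraries 1 and 3, all low ones (exact permutation adjusted p = 0.311), and 3.41 points without the old libraries high in SST markers, 9 and 11 (exact permutation adjusted p = 0.0533). Neither passed. The percentage of counts in all mitochondrially encoded genes, these 2 RNAs included, was 11.9 ± 1.38 in old and 9.29 ± 2.76 in young SST pools (SD). Whether the SST difference is particular to the ribosomal RNAs was not tested. The sources used here do not say whether ribosomal RNA was depleted before sequencing, and these shares depend on it.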

How the data were processed

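The 83 pools of captured neurons were sequenced after library preparation with the SMARTer stranded pico input kit, per the labels' protocols. The authors deposited 1 table of raw counts, without normalization, indexed by Ensembl gene. The submitters' processing notes name HISAT2 and GRCm38. The sources used here name no counting tool, annotation or strand setting, so overlapping genes are uncertain. No molecular identifiers are given, so counts are not independent molecules. Coordinates and exon lengths are from GENCODE M21 on GRCm38, and promoters from RefSeq on GRCm38.p6.

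Libraries were grouped by the labels and numbered within each group in sample order. CPM and FPKM are relative to the library total. Types were compared with edgeR 4.0.16 in R 4.3.3 (quasi-likelihood F-test, robust, TMM factors, filterByExpr with a minimum count of 10, 2-sided, Benjamini-Hochberg) in a fit of all 8 groups, on the 9604 of 19208 genes past the filter that lay at or above the median abundance. Age was tested within each type on all genes past the filter. Standard errors are the fold change over the root of F. Pools of different types that share mice were treated as independent, and nothing says that libraries of a group are separate mice, so p-values measure the spread between pools. The fits were tested on simulated counts.

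The members and lists were chosen with earlier results of these data known, so no list or sum has a test. Members named were those called by type, and up to 3 per direction and type with an unadjusted p under 0.05 for age. Also named were the 3 lowest p for the interaction, the 5 highest and 5 lowest in FPKM, and part of a panel by role. Of each pathway list, up to 4 called genes per type were named. Alternatives were RLE factors, other filters, DESeq2 1.42.0, limma-voom 3.58.1, other covariates (the F number in the titles, library total), a log2 fold change of at least 0.5, other library totals, and leaving out libraries. Chosen after seeing the data were no scaling factors, leaving out the VIP libraries with over 1000 CPM of SST markers, and members without exon overlap. So were medians by type, leaving out each library for the ribosomal RNA share, and the motif for the Esrra product. The spread against which medians were judged was also chosen then. It is the SD of the log2 summed level within groups, 0.18 over all groups. Age medians were judged against that SD within their own type.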

Additional observations from a re-analysis of the deposited data

Results flagged for a closer look

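Within young groups of 8 or 9 libraries, 11 measures were examined for a single library far from the rest, in 44 comparisons, and 8 stood apart. Chance flags about 1 group in 20. Values were flagged where the gap to the next library was large against the range of the group.

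Young PYC library 2 had 0.116% of counts in mt-Rnr1 and mt-Rnr2, against 7.70% to 12.4% in the other 8, and young SST library 6 had 1.80%, against 7.74% to 9.94%. Both are among the 6 libraries low in mitochondrial counts. Mrps2 had 38.9 CPM in young VIP library 3, also 1 of these 6, against 0.303 to 13.4 CPM in the other young VIP libraries. Esrra had 66.4 CPM in young PYC library 2 against 0 to 30.8 CPM in the others, and 54.7 CPM in young PV library 3 against 17.8 to 28.8 CPM. Gfm1 had 172 CPM in young PV library 1 against 29.2 to 87.2 CPM. Ppargc1a had 93.0 CPM in young PYC library 7 against 20.4 to 53.2 CPM, and 214 CPM in young VIP library 9 against 44.5 to 114 CPM.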

How the results depend on the processing

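Of 1745 values under other settings, 1724 kept their direction and side of the threshold or moved by less than the spread. Most of the 1745 come from leaving out 1 library, which changes a fit little, and many are counts of calls that stay at 0. The spread of 0.18, over all groups, exceeds the type medians of PYC and SST. Age medians were judged against the spread within their own type. A median that changed sign can thus be among the 1724. Members called higher in PV numbered 1 in the fit as reported, 16 by limma-voom, 0 in old libraries alone and 2 without the 6 libraries low in mitochondrial counts. With each library left out they numbered 1 to 2. In PYC, 1 member was higher and 1 lower when all genes past the filter were fitted (Mrps18c and Mrps34, both overlapped), and 1 and 1 by limma-voom. Limma-voom also called 1 lower in SST and 4 lower in VIP, and moved the VIP median to -0.48. The cause was not tested. The PV median ran from 0.25 to 0.50 over these settings. The age median in PYC was 0.24 over members without exon overlap, 0.26 with the F number and 0.18 with the library total as covariates, and that in VIP was 0.24 over members without overlap, against 0.03 and -0.05. With 1 library left out, the ribosomal RNA difference was 0.39 to 2.24 points in PYC and -0.51 to 0.19 points in PV, where its sign was not stable. No paired analysis was possible because the numbers were given in sample order and the labels tie no library to a mouse. Single members rest on a median of 64 counts per library, which limits what can be seen for each.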
